A study of Mus musculus with 12 samples.

Results

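The genes described here are 9 that control the breakdown of muscle protein: the muscle ubiquitin ligases Fbxo32, Trim63, Trim54, Trim55 and Fbxo40, the transcription factors Foxo1, Foxo3 and Foxo4, and the secreted inhibitor of muscle growth Mstn. They were chosen by gene symbol, and each matched 1 of the 43686 rows of the table. RNA of the ventricular wall was sequenced from 6 control mice (WT), which carried floxed Sdhaf4 alleles without Cre (Sdhaf4fl/fl), and from 6 littermates (KO), in which Ckmm-Cre removed the floxed alleles. Sdhaf4 encodes an assembly factor of succinate dehydrogenase, the complex II of the mitochondrial respiratory chain. The Ckmm-Cre transgene is driven by the muscle creatine kinase promoter, which is active in heart and skeletal muscle, so the other cells of the ventricle should keep the gene and all skeletal muscles of the animal should lose it as well. The labels give the age as 2 months, the study's text gives a younger age, and its reporting summary names male mice.

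Muscle protein is tagged for the proteasome by ubiquitin ligases. Fbxo32 (atrogin-1) and Trim63 (MuRF1) are the classical markers of skeletal muscle atrophy, and both are also made in the heart, where they act on sarcomere and signalling proteins. Their transcription is driven by the FOXO factors, which insulin and Akt signalling keep out of the nucleus by phosphorylation, so the level of a FOXO transcript is not a measure of FOXO activity. Mstn (myostatin) acts through activin receptors and SMAD proteins and is made mainly by skeletal muscle.

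The promoter of Trim63 is printed because Trim63 fell in the KO hearts and it was the member whose promoter window held a FOXO motif. Of the 9 genes, 6 had an entry among the RefSeq promoters of the GRCm38.p6 build, each of which covers 250 bases before and 50 bases after the start of the gene, and Fbxo32, Trim55 and Foxo4 were not among them. The FOXO binding element was searched as GTAAACA and as its variant ATAAACA on both strands. GTAAACA occurred in 3.65% and ATAAACA in 4.60% of the 32851 promoter windows. The 250 bases before the start of Trim63 (chr4:134314870-134315119, plus strand) hold GTAAACA on the opposite strand, from 194 to 188 bases before the start, and it is shown in capitals as read on the strand of the gene. None of the other 5 windows held either motif, which says only that these letters are absent there.
Trim63: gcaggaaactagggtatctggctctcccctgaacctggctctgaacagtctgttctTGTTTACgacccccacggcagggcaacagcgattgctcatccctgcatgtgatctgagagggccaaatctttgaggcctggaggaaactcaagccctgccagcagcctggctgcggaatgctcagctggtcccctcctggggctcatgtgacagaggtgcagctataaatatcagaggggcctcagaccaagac

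Between 23747014 and 27159228 reads were counted per WT library and between 26542930 and 31393393 per KO library. Sdhaf4, the targeted gene, lay between 14.3 and 30.3 CPM (counts scaled to a common library size with edgeR's TMM method) in the WT hearts and between 2.25 and 2.73 CPM in the KO hearts. In KO replicate 3 the summed level of 10 cardiomyocyte markers, scaled to the library total, was 63857 CPM, against 47446 to 53257 CPM in the other KO hearts and 59073 to 66255 CPM in the WT hearts. Values without this heart are given below for the genes described that it moved most. The 8 fibroblast markers summed to between 1489 and 1802 CPM in WT and between 2297 and 4479 CPM in KO, and 7 of them rose and 1 fell. Defining markers of skeletal muscle and of the atria were scarce, with Myod1 and Bmp10 at or under 3 counts in every library. The skeletal muscle markers summed to between 3.12 and 17.2 CPM in WT and between 1.37 and 6.34 CPM in KO. Of the 4 tested, 3 were lower and 0 higher. The atrial markers summed to between 20.4 and 23.8 CPM in WT and between 49.9 and 71.7 CPM in KO. All 3 tested were higher. Mean CPM went from 3.17 in WT to 29.3 in KO for Dkk3, from 17.2 to 28.0 for Nr2f2 and from 2.12 to 3.49 for Myl4. Myl7 and Sln, at means of 0.081 and 0.027 CPM over all hearts, were not tested. The part of these shifts in the results below was not tested, and in whole ventricle fewer cells of a type and less RNA per cell cannot be told apart.

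The comparison of KO with WT asks whether genes of the atrophy program differ in hearts that lack Sdhaf4 in muscle. Mstn did not pass the filter on low counts of the fit over all rows. Of the other 8 genes, Trim55 and Fbxo40 rose and Fbxo32, Trim63, Foxo1 and Foxo4 fell in the KO hearts, while Trim54 and Foxo3 did not pass the test (quasi-likelihood test of edgeR, p adjusted over 17155 rows by Benjamini-Hochberg, threshold 0.05). The changes were modest: none of the 8 passed an adjusted p of 0.005 together with an absolute log2 fold change over 1. Many genes differed between the genotypes. Of all rows tested, 25.6% were higher and 25.5% were lower in the KO hearts, 10.2% passed the stricter rule, and 30.1% had groups that did not overlap. Against these shares stand 2 members higher, 4 lower, 0 past the stricter rule and 4 without overlap.

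**Figure D1:**
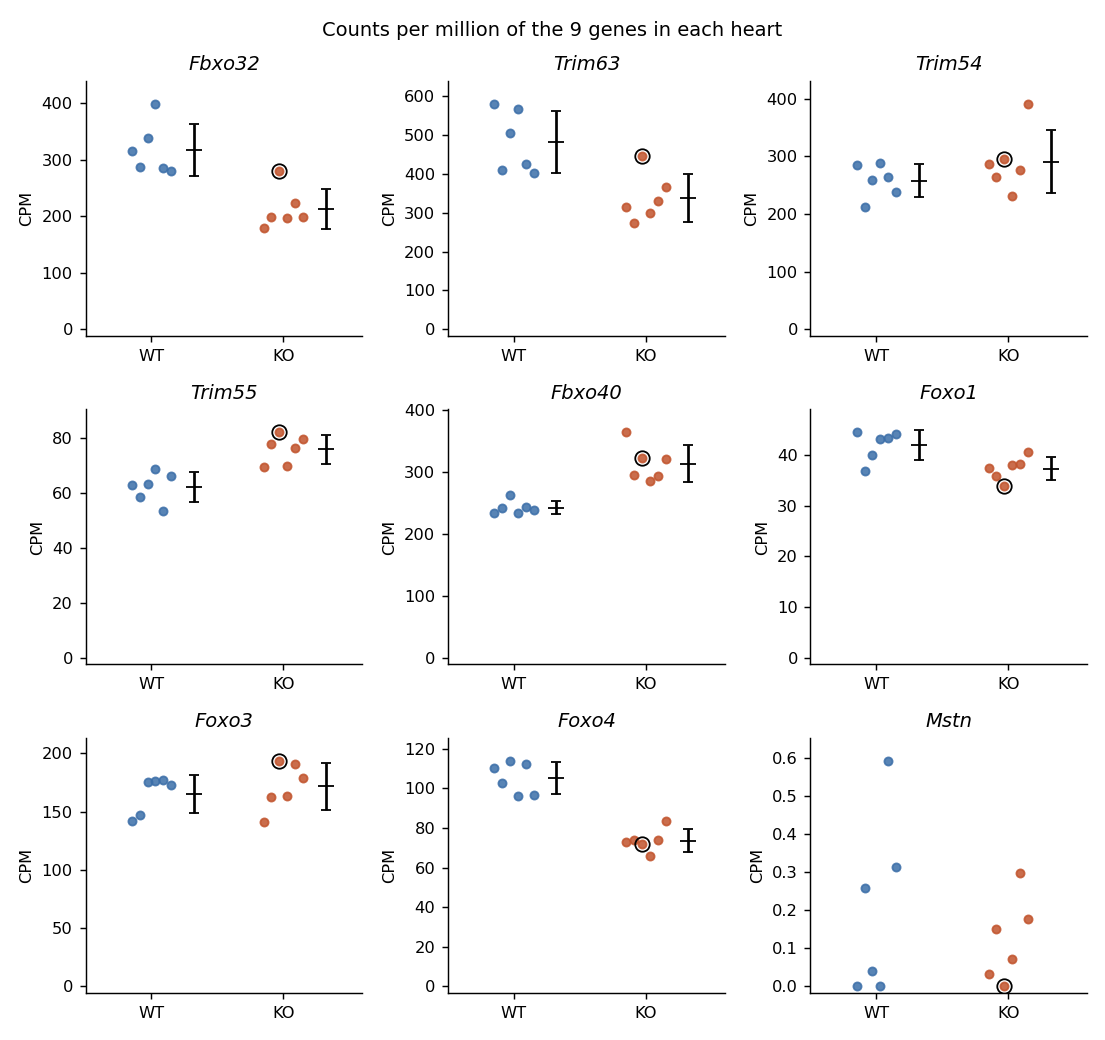
Level of each of the 9 genes in every heart, in CPM with TMM scaling (for Mstn with scaling to the library total), with WT in blue, KO in orange, the mean ± SD as a black bar (not drawn for Mstn) and KO replicate 3 ringed. Fbxo32 and Trim63 lay lower in the KO hearts with KO replicate 3 at the top of its group, at 280 and 447 CPM, and Trim55, Fbxo40 and Foxo4 were separated by genotype.

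Fbxo32 (MGP_C57BL6NJ_G0022276, chromosome 15, 59576602 to 59615574, minus strand on the C57BL/6NJ assembly) encodes the F-box subunit of an SCF ubiquitin ligase that acts on calcineurin and MyoD among others. Its level ranged from 280 to 399 CPM in the WT hearts, with a median of 302, and from 180 to 280 CPM in the KO hearts, with a median of 199. The groups did not overlap, but the gap between the lowest WT heart at 280.3 and KO replicate 3 at 279.5 was far smaller than the spread within either group. The mean fell from 318 ± 45.8 to 213 ± 35.6 CPM (SD over 6 hearts each), and the log2 fold change was -0.58 (SE 0.11, edgeR adjusted p = 0.00045). Without KO replicate 3 the log2 fold change was -0.68 (edgeR adjusted p = 1.19e-05). A row on the opposite strand shares 418 bases with Fbxo32 and held 2.70% as many counts.

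Trim63 (MGP_C57BL6NJ_G0029347, chromosome 4, 141595399 to 141611656, plus strand) encodes MuRF1, a RING ligase of the sarcomere that marks thick filament proteins and troponin I for breakdown. The WT hearts ranged from 403 to 582 CPM with a median of 465, and the KO hearts from 273 to 447 CPM with a median of 322. In 5 of 6 KO hearts Trim63 lay below every WT heart, and KO replicate 3 lay within the WT range. On average it went down from 482 ± 80.4 to 338 ± 61.6 CPM (SD over 6 hearts each), and the log2 fold change was -0.51 (SE 0.13, edgeR adjusted p = 0.00381) and without KO replicate 3 -0.61 (edgeR adjusted p = 0.000349).

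Fbxo40 (MGP_C57BL6NJ_G0023210, chromosome 16, 36228931 to 36254306, minus strand) encodes a muscle F-box protein known to target the insulin receptor substrate IRS1. It moved the opposite way to Fbxo32. The WT hearts lay between 233 and 262 CPM (median 240) and the KO hearts between 285 and 364 CPM (median 308), without overlap. The mean rose from 242 ± 10.5 to 313 ± 29.3 CPM (SD over 6 hearts each), and the log2 fold change was 0.37 (SE 0.06, edgeR adjusted p = 6.08e-05). The ratio of Fbxo40 to Fbxo32, taken per length from the FPKM values, was 1.58 to 2.31 in the WT hearts and 3.12 to 5.50 in the KO hearts.

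The remaining MuRF genes did not follow Trim63. Trim55 (MuRF2; MGP_C57BL6NJ_G0027512, chromosome 3, 17933000 to 17980300, plus strand), a sarcomere-associated ligase that binds titin and microtubules, lay between 53.6 and 69.0 CPM in the WT hearts (median 63.2) and between 69.6 and 82.3 CPM in the KO hearts (median 77.3), so that the groups were separated by less than 1 CPM. Its mean rose from 62.3 ± 5.49 to 76.0 ± 5.28 CPM (SD over 6 hearts each), and the log2 fold change was 0.29 (SE 0.06, edgeR adjusted p = 0.0011). A row on the same strand shares 620 bases with it and held 2.16% as many counts. Trim54 (MuRF3; MGP_C57BL6NJ_G0029840, chromosome 5, 30904885 to 30927295, plus strand), which stabilises microtubules and acts with MuRF1 on myosin, ranged from 213 to 288 CPM in WT (median 261) and from 231 to 391 CPM in KO (median 281). These groups overlapped, with KO replicates 3 and 6 above all WT hearts. The log2 fold change was 0.17 (SE 0.11, 95% interval -0.06 to 0.41, edgeR adjusted p = 0.203), and it was 0.066 without KO replicate 6. An unnamed row on the other strand shares 1576 bases with it and held 4.02% as many counts.

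**Figure D2:**
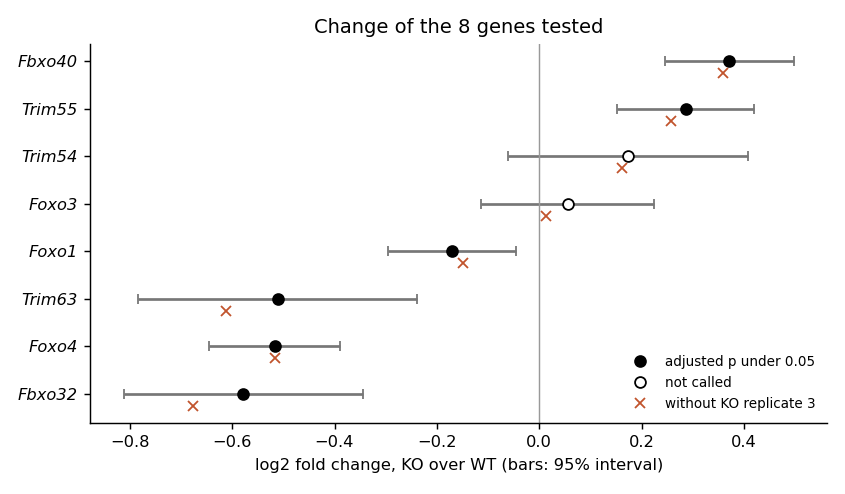
Log2 fold change of KO over WT for the 8 genes tested, with the 95% interval as a bar, filled points where the adjusted p was under 0.05, and crosses for the same fit without KO replicate 3. Fbxo32, Foxo4 and Trim63 lay between -0.58 and -0.51 and Fbxo40 at 0.37, and leaving out KO replicate 3 moved Fbxo32 and Trim63 further down.

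Among the FOXO factors Foxo4 changed most. Foxo4 (MGP_C57BL6NJ_G0036450, chromosome X, 100661116 to 100667433, plus strand) ranged from 96.0 to 114 CPM in WT (median 107) and from 65.9 to 83.4 CPM in KO (median 73.3), with every KO heart below every WT heart. Its mean fell from 105 ± 8.04 to 73.7 ± 5.64 CPM (SD over 6 hearts each), and the log2 fold change was -0.52 (SE 0.06, edgeR adjusted p = 2.22e-06), and leaving out KO replicate 3 left this value at -0.52. Foxo1 (MGP_C57BL6NJ_G0027620, chromosome 3, 52811440 to 52897060, plus strand), the main FOXO of insulin-responsive tissues, ranged from 36.7 to 44.5 CPM in WT (median 43.2) and from 33.8 to 40.5 CPM in KO (median 37.7). Only 2 of 6 KO hearts lay below all WT hearts. Its mean went from 42.0 ± 2.99 to 37.3 ± 2.28 CPM (SD over 6 hearts each), and the log2 fold change was -0.17 (SE 0.06, edgeR adjusted p = 0.0239), and the call was lost without KO replicate 2 (-0.16, edgeR adjusted p = 0.0524). Rows that overlap Foxo1 held 0.131% and 1.29% as many counts. Foxo3 (MGP_C57BL6NJ_G0017581, chromosome 10, 42119869 to 42215431, minus strand), the factor best known for driving Fbxo32, ranged from 142 to 177 CPM in WT (median 174) and from 141 to 194 CPM in KO (median 171). The groups overlapped widely, and the log2 fold change was 0.06 (SE 0.08, 95% interval -0.11 to 0.22, edgeR adjusted p = 0.587), ranging from 0.0080 to 0.11 when single libraries were left out.

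Mstn (MGP_C57BL6NJ_G0016404, chromosome 1, 54789853 to 54796292, plus strand) was close to the limit of detection in these ventricles. WT replicates 1 to 6 held 0, 7, 1, 0, 15 and 8 counts, and KO replicates 1 to 6 held 1, 4, 0, 2, 9 and 5 counts. In the 3 libraries with no count, a limit of 3 counts corresponds to at most 0.126 CPM. The sums were 31 counts in WT and 21 in KO, and the levels, scaled to the library total, did not pass a test of their own (two-sided exact permutation test of the mean CPM, p = 0.502, n = 6 in each group).

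Within each family the mixture of transcripts was examined as a share of the summed FPKM (fragments per length of the gene and per size of the library) of the same heart, a ratio that no scaling between libraries can move. The size of a share and of a family's sum does depend on the length used for each gene. Trim63 supplied 57.7 ± 2.29% of the MuRF transcripts in WT and 45.7 ± 3.85% in KO (SD over 6 hearts each), and the difference was -12.0 percentage points. Trim54 rose by 9.13 points, from 34.5 ± 1.96% to 43.7 ± 3.86%, and Trim55 by 2.89 points, from 7.71 ± 0.942% to 10.6 ± 1.14%. None of these 3 shares overlapped between genotypes, but for 2 of them the gap was narrow. The highest WT and the lowest KO share were 9.18% and 9.21% for Trim55, and 37.9% and 38.2% for Trim54. The 3 MuRF genes together summed to 525 ± 65.5 FPKM in WT and 466 ± 56.5 FPKM in KO, with overlapping ranges. Among the FOXO factors, Foxo3 made up 48.4 ± 3.22% in WT and 57.7 ± 3.07% in KO, Foxo4 47.6 ± 3.22% and 38.2 ± 2.79%, and Foxo1 4.02 ± 0.324% and 4.11 ± 0.399%. The shares of Foxo3 and Foxo4 did not overlap between genotypes. With the table's length, the mean level per length in WT was 24.1 for Foxo3 and 33.6 for Foxo4, so their near-equal shares in WT rest on the length behind FPKM. The changes kept their direction with the table's length. They were 8.81 points for Foxo3, -9.23 for Foxo4, -11.9 for Trim63, 9.96 for Trim54 and 1.92 for Trim55. The FOXO genes together summed to 121 ± 5.39 FPKM in WT and 105 ± 6.73 FPKM in KO. These sums did not overlap, with the lowest WT heart at 114.6 and the highest KO heart at 113.6 FPKM. The level of Foxo3 itself did not pass the test above. Apart from Foxo1 (p = 0.667, two-sided exact permutation test, n = 6 in each group), all 5 shares differed with the smallest p that 6 hearts against 6 can give (p = 0.00216, two-sided exact permutation test, adjusted p = 0.0026 over 6 shares). The shares of a family add up to the whole, so they are not independent of each other.

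**Figure D3:**
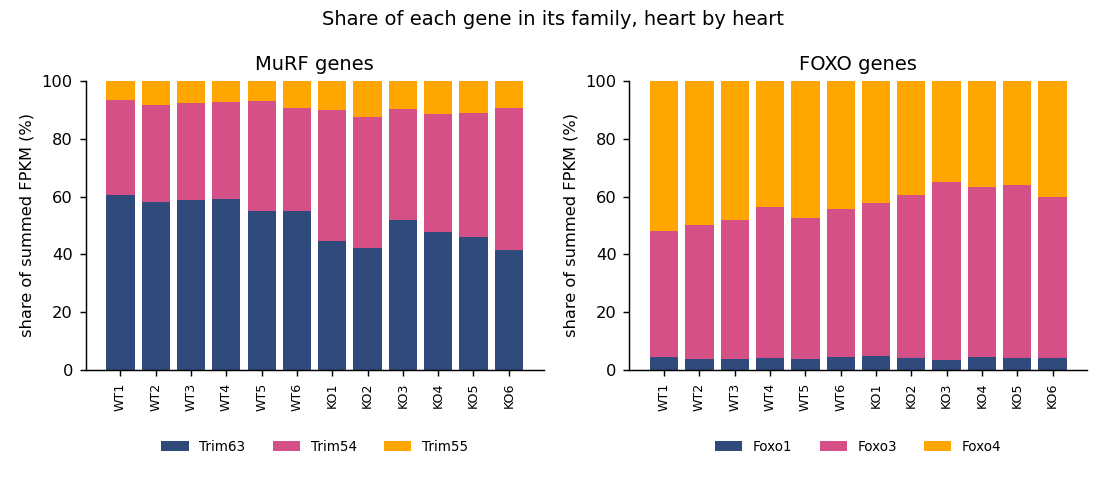
Share of each gene in the summed FPKM of its family in every heart, for the MuRF genes (left) and the FOXO genes (right). Trim63 took 54.9% to 60.4% of the MuRF sum in the WT hearts and 41.5% to 52.0% in the KO hearts, and Foxo4 43.6% to 52.0% and 35.0% to 42.2% of the FOXO sum.

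Levels of different genes were compared per length. In the WT hearts the mean FPKM was 304 for Trim63, 181 for Trim54, 94.6 for Fbxo40, 58.4 for Foxo3, 57.3 for Foxo4, 45.7 for Fbxo32, 40.2 for Trim55 and 4.84 for Foxo1. In the KO hearts Trim63 (213 FPKM) and Trim54 (204 FPKM) were followed by Fbxo40 (122), Foxo3 (60.8), Trim55 (48.9), Foxo4 (40.1), Fbxo32 (30.6) and Foxo1 (4.30). With 6 hearts this comparison passes only where all 6 go the same way, so a miss does not show that a pair is level. Neighbours that did not pass were Foxo3 and Foxo4 in WT (adjusted p = 0.75, exact sign-flip permutation test), Foxo4 and Fbxo32 in WT and in KO and Fbxo32 and Trim55 in WT (the gene named first higher in 5 of 6 hearts each time, adjusted p = 0.0729, same exact test), and Trim63 and Trim54 in KO (adjusted p = 0.673, same exact test). All other neighbours differed in 6 of 6 hearts (adjusted p = 0.0486 over 14 pairs, same exact test). For 5 of these 8 genes the FPKM rests on a length that differs by more than 1% from the one in the table, and with the table's length the order of several neighbours turns.

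**Figure D4:**
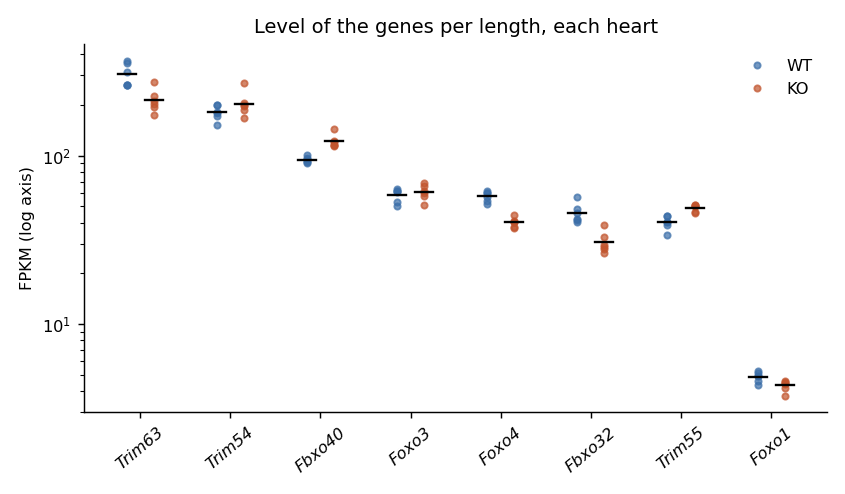
FPKM of 8 of the genes in every heart on a log axis, ordered by the WT mean, with WT in blue, KO in orange and the group mean as a black line. Trim63 stood above Trim54 in WT (means of 304 and 181) and the pair lay close together in KO (213 and 204), and Foxo1 lay far below the rest in both genotypes.

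Across hearts of the same genotype, Fbxo32 and Trim63 tended to be high and low together: with the genotype means removed, the correlation of their log2 CPM was 0.80 over 12 hearts, and 0.67 without KO replicate 3. These points share library, depth and scaling, and no test was run. Among 10043 named genes, Trim63 ranked 70th for likeness to Fbxo32, and the 5 most alike were Armc5 (r = 0.97), Asxl2 (0.94), Bola3 (0.92), Fabp3-ps1 (0.90) and Nutf2-ps1 (0.90). Those most alike to Trim63 were Herpud1 (r = 0.91), Ppp1r37 (0.91), D17Wsu92e (0.90), Gm10638 (0.90) and Ank (0.90). With Fbxo32, the r was 0.65 for Trim55, 0.59 for Foxo3, 0.29 for Trim54, -0.13 for Foxo4, -0.13 for Fbxo40 and -0.23 for Foxo1. Without KO replicate 3 the r with Fbxo32 was 0.60 for Trim55, 0.47 for Foxo3, 0.32 for Trim54, -0.08 for Foxo4, -0.31 for Fbxo40 and 0.16 for Foxo1, so the sign for Foxo1 rests on this heart. With Trim63, it was 0.63 for Trim54, 0.54 for Trim55, 0.29 for Foxo3, 0.19 for Foxo4, 0.15 for Fbxo40 and 0.06 for Foxo1. Without KO replicate 3 it was 0.74 for Trim54, 0.44 for Trim55, 0.07 for Foxo3, 0.32 for Foxo4, 0.08 for Fbxo40 and 0.50 for Foxo1. The order of the genes after Trim54 thus rests on this heart too.

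The genes that FOXO factors are known to switch on were mostly lower. Of 29 genes listed, 27 were tested, and 18 were lower and 3 higher after loss of Sdhaf4. The median log2 fold change was -0.35, against 0.00 over all rows tested. The lower share was 66.7% beside 25.5% of all rows, and 18 were also lower without KO replicate 3. Pnpla2, the triglyceride lipase ATGL, fell from 823 ± 59.5 to 442 ± 53.6 CPM (SD over 6 hearts each), and the log2 fold change was -0.90 (SE 0.08, edgeR adjusted p = 5.87e-08). Ccng2, a cyclin that restrains the cell cycle, fell with a log2 fold change of -0.56 (SE 0.06, edgeR adjusted p = 5.81e-07), and the ligase gene Fbxo31 with -1.76 (SE 0.15, edgeR adjusted p = 6.18e-07), or -1.86 without KO replicate 3. These 3 genes had groups that did not overlap.

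Other FOXO targets are given here after their values were seen, because they are familiar. Pdk4, the kinase that shuts off pyruvate dehydrogenase, fell from 5442 ± 632 to 1821 ± 847 CPM (SD over 6 hearts each), and the log2 fold change was -1.58 (SE 0.26, edgeR adjusted p = 0.000362), or -1.82 without KO replicate 3, where it was at 3192 CPM. Bnip3, a mitophagy receptor, had a log2 fold change of -0.79, Bcl2l11, a pro-apoptotic protein, of -0.85, Gadd45a of -0.91 (-1.02 without KO replicate 3), Cat, the catalase, of -0.35, and Ulk1, the autophagy kinase, of -0.37 (edgeR adjusted p from 8.61e-07 for Bcl2l11 to 0.00257 for Ulk1). The 3 that rose were Cdkn1a (0.52, edgeR adjusted p = 0.021), the cell cycle inhibitor p21, Becn1 (0.19, edgeR adjusted p = 0.00123), an autophagy protein, and Fbxo30 (0.16, edgeR adjusted p = 0.0224), a ligase gene. The call of Cdkn1a was lost without KO replicate 4 (0.46, edgeR adjusted p = 0.0512), and that of Fbxo30 without WT replicate 1 (0.14), WT replicate 6 (0.13) or KO replicate 1 (0.14). Klf15, Txnip, Sesn1, Sesn3, Atg12 and Cited2 did not pass the test, with log2 fold changes between -0.07 and 0.19. Windows that hold a FOXO motif are printed for Bcl2l11, which fell, for Gabarapl1, whose log2 fold change was -0.30 (edgeR adjusted p = 0.024, lost without KO replicate 2 or KO replicate 4 at -0.27 and -0.25), and for Txnip, whose log2 fold change was -0.04 (edgeR adjusted p = 0.687). Of the 25 targets with a promoter entry, 3 held GTAAACA and 1 held ATAAACA, and the windows lie on GRCm38.p6 at chr2:128125799-128125829, chr6:129533085-129533115 and chr3:96557824-96557854, with the motif in capitals. The match of Sesn1 lies after its start and is not shown.
Bcl2l11: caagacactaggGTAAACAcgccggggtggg
Gabarapl1: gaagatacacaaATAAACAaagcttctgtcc
Txnip: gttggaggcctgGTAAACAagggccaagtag

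Of 26 listed regulators upstream of the FOXO factors, 25 were tested, and 12 (48%) were higher and 3 (12%) lower, beside 25.6% and 25.5% of all rows. Their median log2 fold change was 0.13. Higher were Sgk1, a kinase that phosphorylates FOXO factors (0.57, SE 0.07, edgeR adjusted p = 4.34e-06), Ywhag, a 14-3-3 protein (0.36, SE 0.05, edgeR adjusted p = 4.31e-06), and Prkaa2, a catalytic subunit of AMPK (0.35, SE 0.06, edgeR adjusted p = 7.38e-05). The 3 lower were Akt2 (-0.40, SE 0.05, edgeR adjusted p = 8.57e-06), the insulin receptor gene Insr (-0.35, SE 0.06, edgeR adjusted p = 0.000169) and Irs2 (-1.16, SE 0.26, edgeR adjusted p = 0.00277), whose groups overlapped since the WT hearts ranged from 15.3 to 56.8 CPM. Irs1, whose protein is the substrate that FBXO40 targets, is named outside the rule for named genes and did not pass the test (-0.33, edgeR adjusted p = 0.0529). Of the fits without 1 library, only that without KO replicate 3 called it lower (-0.47, edgeR adjusted p = 0.000462). Its RNA level says nothing of the protein on which the ligase acts. Insr and Irs2 are also on the list of FOXO targets.

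Genes of the myostatin and activin pathway were examined beside Mstn itself. All 22 genes listed were found and 20 were tested, of which 8 (40%) were higher, 4 (20%) were lower and 8 were not called, with a median log2 fold change of 0.12, beside 25.6% higher and 25.5% lower over all rows. Without KO replicate 3, 9 were higher. Wfikkn2, a secreted protein that binds myostatin and GDF11, fell from 11.1 ± 0.937 to 1.11 ± 0.406 CPM (SD over 6 hearts each). Its log2 fold change was -3.31 (SE 0.19, edgeR adjusted p = 7.13e-10), and its groups did not overlap. Of the same list, 1 gene that rose and 2 that fell are given after their values were seen. They are Fstl3 (1.24, edgeR adjusted p = 3.57e-07), Gdf11 (-0.96, edgeR adjusted p = 0.00396) and Acvr2b (-0.69, edgeR adjusted p = 0.00191). Among the genes that rose were Ltbp3, a latent TGF-beta binding protein (1.05, SE 0.05, edgeR adjusted p = 1.81e-10), Smad7, the inhibitory SMAD (1.13, SE 0.10, edgeR adjusted p = 1.17e-07), and Tgfbr1, a type I receptor (0.89, SE 0.08, edgeR adjusted p = 1.71e-07). Smad4, the common SMAD, was slightly lower (-0.12, SE 0.04, edgeR adjusted p = 0.0351), and this call was lost without WT replicate 2 (-0.10), KO replicate 3 (-0.10) or KO replicate 4 (-0.11). Dcn, a fibroblast marker, is on this list too (0.63, edgeR adjusted p = 7.37e-06), and of all 8 fibroblast markers 7 rose, while Dpt fell (-0.46, edgeR adjusted p = 0.00135).

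**Figure D5:**
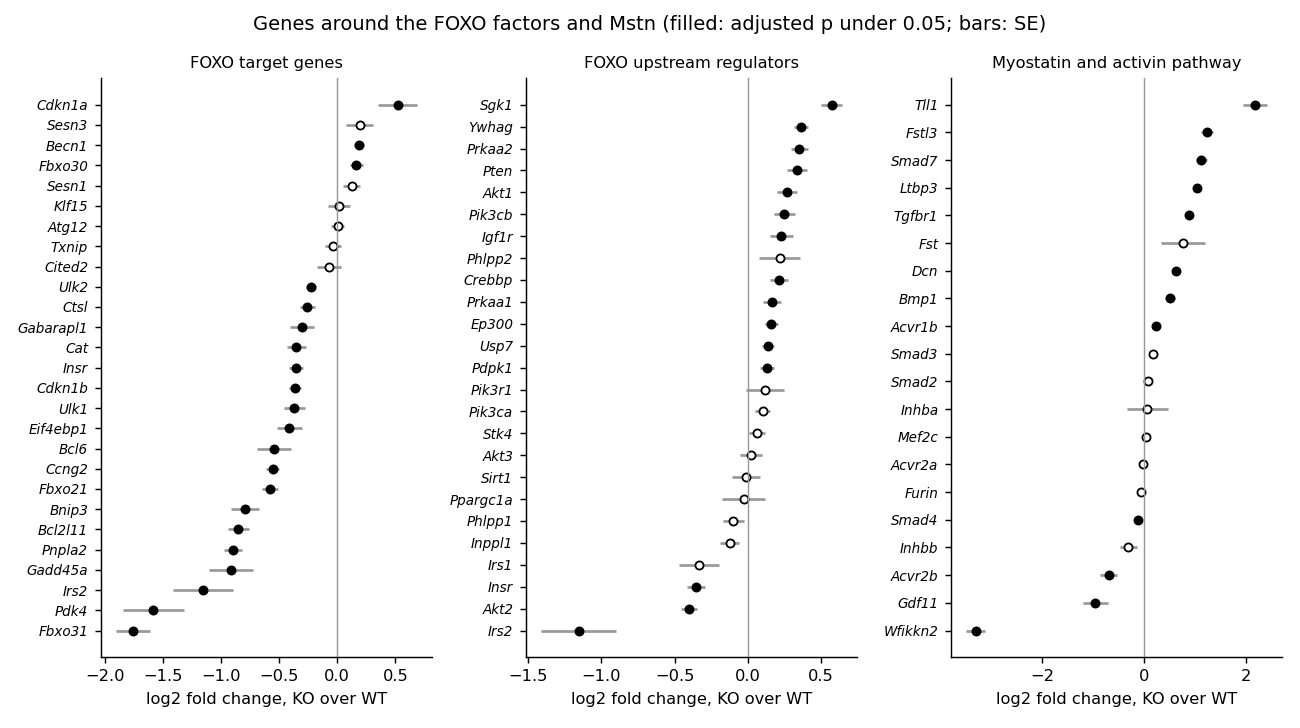
Log2 fold change of KO over WT with its SE for the genes tested on 3 lists, the FOXO targets (left), the regulators upstream of FOXO (middle) and the myostatin and activin pathway (right), with filled points where the adjusted p was under 0.05. On the left 18 of 27 genes were lower, in the middle 12 of 25 were higher, and Wfikkn2 stood apart at -3.31 on the right.

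Other muscle ubiquitin ligases and their partners moved in both directions. Of 30 listed, 29 were tested, 10 (34.5%) were higher and 11 (37.9%) lower, beside 25.6% and 25.5% of all rows, and the median log2 fold change was 0.01. The higher genes included Asb2, a SOCS-box ligase subunit that acts on filamins (0.66, SE 0.09, edgeR adjusted p = 1.48e-05), and Trim32 (0.52, SE 0.08, edgeR adjusted p = 3.5e-05), a ligase mutated in a limb-girdle dystrophy. The lower genes included Fbxo31, given above, Asb15 (-1.30, SE 0.10, edgeR adjusted p = 3.54e-08, and -1.42 without KO replicate 3) and Klhl41, a sarcomeric protein of the BTB-kelch family (-0.90, SE 0.09, edgeR adjusted p = 6.22e-07). In all 5 of these genes the groups did not overlap. The gene of the CUL1 adaptor SKP1, which carries Fbxo32 and is called Skp1a in the table, had a log2 fold change of -0.17 (edgeR adjusted p = 0.00529), and Cul1 of 0.01 (edgeR adjusted p = 0.93).

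The transcripts of described substrates and partners of these ligases did not share a direction. All 24 were tested, 7 (29.2%) were higher and 10 (41.7%) lower, beside 25.6% and 25.5% of all rows, and the median log2 fold change was -0.11. Without KO replicate 3, 12 were lower. Mybpc3, the cardiac myosin binding protein C, rose from 2360 ± 333 to 4887 ± 634 CPM (SD over 6 hearts each), and the log2 fold change was 1.05 (SE 0.10, edgeR adjusted p = 2.17e-07), Ldb3, a Z-disc protein, changed by 0.49 (SE 0.06, edgeR adjusted p = 4.96e-06) and Chmp2b, an ESCRT subunit, by 0.31 (SE 0.05, edgeR adjusted p = 6.47e-05). Tnni3, cardiac troponin I and a target of MuRF1, fell from 3784 ± 242 to 2043 ± 195 CPM (-0.89, SE 0.07, edgeR adjusted p = 2.72e-08), as did Myoz2 (-0.53, SE 0.06, edgeR adjusted p = 3.37e-06), a Z-disc protein. Ckm, the muscle creatine kinase and a MuRF1 substrate, fell with a log2 fold change of -0.95 (SE 0.07, edgeR adjusted p = 6.9e-09), and its promoter is the one that drives the Cre of the KO mice. RNA levels carry no information on ubiquitination, and 10 cardiomyocyte markers, among them Tnni3 and Mybpc3, were 1 higher and 5 lower, and 7 were lower without KO replicate 3. It is not known whether counting used strand, which leaves uncertain the values of genes whose spans overlap other rows. Among genes named from lists they are Asb2, Trim32, Skp1a, Cul1, Insr, Irs1, Irs2, Becn1, Gadd45a, Gabarapl1, Txnip, Fstl3, Dpt, Nr2f2, Myl4, Tnni3 and Ckm.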

How the data were processed

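The members, gene lists and tests were chosen with earlier results of these data known. The authors purified mRNA on poly-T beads and deposited raw counts per gene (HTSeq) and FPKM per library. The submitters' processing notes name HISAT2 2.0.5 and mm10, whereas identifiers and coordinates are those of the C57BL/6NJ assembly, and the strand setting is not given in the sources used here. The authors also deposited group means of size-scaled counts (a signal) and the log2 fold changes and p-values of their DESeq comparison, none of which was used.

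Counts of 6 WT and 6 KO hearts were tested with edgeR 4.0.16 under R 4.3.3 (filterByExpr, TMM, robust quasi-likelihood test, Benjamini-Hochberg adjustment over 17155 rows), and tested on simulated data (196 of 200 changed genes recovered, 12 false calls among 17007 genes). Intervals of fold changes use 95% and the total degrees of freedom of the edgeR fit, residual and prior together. FPKM served for family shares and order. The table's length matched the length behind FPKM within 1% in 14574 of 27883 rows with counts. Floors cover counting error only. Replicates were labelled as separate samples, and p-values measure the spread between these samples. The chi-square per degree of freedom between libraries of a genotype was 7.47 or more. Named genes were, per list, up to 3 with the smallest p in each direction at a mean of at least 5 CPM. A gene that this rule names is not reported here. Alternatives were other normalizations, DESeq2 1.42.0, limma-voom 3.58.1, other filters, no robust dispersions, the replicate number as a block, other length scalings (that by the table's length was chosen after seeing the data) and each library left out.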

Additional observations from a re-analysis of the deposited data

Results flagged for a closer look

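Of 72 groups of 6 hearts examined (the members and the named genes), 5 held a heart whose gap to its nearest neighbour, as a part of the whole range of its group, was over the 95% limit of Dixon's test, where chance alone flags 3.6. Fbxo40 stood high in WT replicate 3, at 262 CPM with the other WT hearts between 233 and 244. Asb15 stood high in KO replicate 3, at 29.5 CPM. Ckm stood low in WT replicate 1 at 1971 CPM, Tnni3 low in WT replicate 6 at 3332 CPM, and Myoz2 high in WT replicate 5 at 1309 CPM.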

How the results depend on the processing

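Every alternative kept the direction of the 8 members tested, and their calls also held except for Foxo1 without KO replicate 2 (-0.16, edgeR adjusted p = 0.0524; its fits without 1 library ranged from -0.21 to -0.15). Leaving out 1 library gave -0.68 to -0.51 for Fbxo32 and -0.61 to -0.46 for Trim63. The share of Foxo1 among the FOXO genes changed sign in CPM (-0.19 points) and without KO replicate 1 (range over single libraries left out -0.0055 to 0.216). The order of levels depends on length. In CPM, the log2 differences in WT were 0.084 for Trim54 over Fbxo40, 0.64 for Foxo3 over Foxo4, -1.58 for Foxo4 over Fbxo32 and 2.34 for Fbxo32 over Trim55, and in KO -0.12 for Trim54 over Fbxo40, 0.046 for Trim55 over Foxo4 and -1.52 for Foxo4 over Fbxo32. With the table's length, they were -0.48 for Foxo3 over Foxo4, -0.44 for Foxo4 over Fbxo32 and 0.92 for Fbxo32 over Trim55 in WT, and -0.18 for Trim63 over Trim54, -0.23 for Foxo3 over Trim55 and -0.37 for Foxo4 over Fbxo32 in KO. With the replicate block, Fbxo32 was at -0.58 and Trim63 at -0.51, and 2 members were higher and 4 lower. No pairing by replicate number was seen: with the genotype means removed, same-numbered hearts correlated between -0.16 and 0.02. This check cannot show whether hearts shared a litter or a batch. Low counts limit Mstn.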
